A study of Caenorhabditis elegans with 2 samples.

Results

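Binding of CEH-82, the homeodomain protein encoded by ceh-82 (F45C12.2), was mapped by chromatin immunoprecipitation and sequencing (ChIP-seq) in whole Caenorhabditis elegans larvae of the first stage (L1). The peaks described here are those whose summit lay within 500 bp of the annotated starts of 2 or more protein-coding genes, so that a single peak stood beside several genes. They numbered 389 of the 2346 peaks in the deposited optimal list. The other peaks were 857 with exactly 1 such start and 1100 with none. The animals were strain OP212, whose labelled genotype is unc-119(ed3) III; ddEx58, and carried F45C12.2 fused at its C-terminus to a GFP-FLAG tag. Males and females were pooled, the chromatin was sonicated, and 2 biological replicates formed the single group of samples. Per the labels the antibody was against ceh-82 while the tag was GFP-FLAG, which leaves the recognised epitope unclear. The construct is described as inserted although ddEx58 has the name form of an extrachromosomal array. A ChIP of untagged animals was not analysed here, so binding of CEH-82 and signal from other sources cannot be told apart. Sequencing depth is unknown. With 1 group there was no comparison between samples to test, so shares are given with 95% Wilson intervals, which cover counting error alone. Values of each replicate taken alone are given for the main measures.

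Homeodomain proteins bind DNA through a helix-turn-helix fold and many of them recognise short AT-rich words. The C. elegans genome is compact, and neighbouring genes on opposite strands often start back to back. The stretch between such divergent starts can hold the control elements of both genes. Many C. elegans transcripts are also trans-spliced: the first stretch of the primary transcript, the outron, is replaced by a short spliced leader at a splice acceptor that ends in AG. The annotated 5' end of such a gene can then be the acceptor site and not the position at which transcription began, so a distance to an annotated start is not always a distance to a transcription start.

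The sequences below are from the RefSeq copy of WBcel235, the assembly equal to ce11, plus strand, 5' to 3'. They come from chromosomes II to V and show what lay at the summit and at the starts of strong shared peaks. The first 5 are whole stretches between the starts, from strong divergent peaks on those chromosomes with starts at most 300 bp apart. The stretch of the strongest such peak, at ska-3/rps-12 (signal 348.4), was also read but is not printed. Each is named with the minus-strand gene, which reads leftward from the first base, before the plus-strand gene, which reads rightward from the last. The run of 21 capitals is centred on the summit, and CTG at the left end or CAG at the right end is in capitals where it directly precedes an annotated start.
dnsn-1/C24H12.4 (chrII:410933-411221): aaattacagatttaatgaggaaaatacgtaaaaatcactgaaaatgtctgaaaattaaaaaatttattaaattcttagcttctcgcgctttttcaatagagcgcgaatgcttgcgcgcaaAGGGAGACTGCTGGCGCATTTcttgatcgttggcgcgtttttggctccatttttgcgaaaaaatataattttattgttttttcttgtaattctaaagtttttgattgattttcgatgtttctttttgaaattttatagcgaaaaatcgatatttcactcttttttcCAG
fbxb-85/hex-3 (chrIII:10848964-10849221): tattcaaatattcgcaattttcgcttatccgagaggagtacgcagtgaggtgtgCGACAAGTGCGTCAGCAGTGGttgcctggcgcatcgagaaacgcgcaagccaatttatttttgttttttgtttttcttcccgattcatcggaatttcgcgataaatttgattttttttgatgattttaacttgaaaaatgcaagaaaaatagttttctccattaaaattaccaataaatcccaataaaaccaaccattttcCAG
T23F6.3/rbd-1 (chrIV:12724761-12724985): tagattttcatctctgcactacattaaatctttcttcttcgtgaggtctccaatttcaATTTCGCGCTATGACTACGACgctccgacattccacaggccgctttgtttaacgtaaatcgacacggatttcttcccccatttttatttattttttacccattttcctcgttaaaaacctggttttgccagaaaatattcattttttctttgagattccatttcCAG
T26A8.4/pdtf-1 (chrIV:8432894-8433037): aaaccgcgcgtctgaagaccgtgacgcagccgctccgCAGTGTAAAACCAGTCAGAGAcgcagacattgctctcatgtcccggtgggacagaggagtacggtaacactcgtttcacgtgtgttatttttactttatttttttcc
ctf-4/eef-1G (chrV:10965540-10965718): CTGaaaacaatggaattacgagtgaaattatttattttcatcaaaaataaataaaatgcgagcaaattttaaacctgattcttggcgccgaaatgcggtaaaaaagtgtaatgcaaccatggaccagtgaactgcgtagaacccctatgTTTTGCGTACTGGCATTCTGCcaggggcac
At the pair of dnsn-1, the homologue of DONSON, and the RNA helicase gene C24H12.4, the start of C24H12.4 directly followed the triplet. At the pair of fbxb-85, an F-box gene, and hex-3, a hexosaminidase gene, the start of hex-3 did. At the pair of T23F6.3 and rbd-1, an RNA-binding protein gene, the start of rbd-1 did. In each of these 3 pairs that start was the farther from the summit, at 159, 194 and 157 bp, against 131, 65 and 69 bp for dnsn-1, fbxb-85 and T23F6.3. At ctf-4, a sister chromatid cohesion gene, and eef-1G, a translation elongation factor gene, the triplet preceded ctf-4, 160 bp from the summit, and the summit lay 20 bp from eef-1G. Neither T26A8.4 nor pdtf-1 had it. At ska-3/rps-12, which is not printed, the triplet preceded both starts, 119 bp (ska-3) and 174 bp (rps-12) from the summit.

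The 4 strongest divergent peaks on the same chromosomes with starts farther apart are shown as 100 bp on each side of the summit, with the 21 bases at the summit in capitals.
rpl-20/Y17G9B.5 (chrIV:4749977-4750177): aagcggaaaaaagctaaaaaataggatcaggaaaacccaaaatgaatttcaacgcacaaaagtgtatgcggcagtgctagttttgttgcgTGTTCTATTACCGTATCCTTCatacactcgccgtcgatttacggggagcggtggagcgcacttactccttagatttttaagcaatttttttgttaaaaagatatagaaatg
rpl-15/K11H12.8 (chrIV:654824-655024): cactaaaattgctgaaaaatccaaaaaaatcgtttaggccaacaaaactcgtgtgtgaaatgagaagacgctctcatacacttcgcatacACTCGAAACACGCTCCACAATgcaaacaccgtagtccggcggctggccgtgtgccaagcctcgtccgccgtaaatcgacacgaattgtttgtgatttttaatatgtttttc
drr-2/set-16 (chrIII:13643626-13643826): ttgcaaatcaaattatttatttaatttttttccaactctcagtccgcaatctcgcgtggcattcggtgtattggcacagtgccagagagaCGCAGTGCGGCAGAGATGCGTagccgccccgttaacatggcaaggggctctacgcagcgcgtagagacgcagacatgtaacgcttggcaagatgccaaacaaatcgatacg
cct-8/Y55F3AR.2 (chrIV:1094255-1094455): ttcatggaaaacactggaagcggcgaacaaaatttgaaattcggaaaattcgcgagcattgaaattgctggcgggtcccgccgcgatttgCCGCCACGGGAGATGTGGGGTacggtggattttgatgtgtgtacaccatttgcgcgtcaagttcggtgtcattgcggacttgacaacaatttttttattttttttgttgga
The word TAAATCGA, in one orientation or the other, was present in the stretches of T23F6.3/rbd-1, rpl-20/Y17G9B.5 and rpl-15/K11H12.8. The stretch of ska-3/rps-12 that is not printed also held the word TAAATCGA. The frequency of this word over the whole list is given further on.

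Nearly all shared peaks stood beside a divergent pair of genes. Of the 389, 359 had 1 start on each strand with the genes pointing away from each other, a share of 92.3% (95% CI 89.2 to 94.5%). They covered 358 distinct pairs, since mtx-1/dnj-12 had 2 peaks (signals 119.9 and 37.4). Another 9, called facing here, had opposite-strand genes that overlapped at their 5' ends, and are not counted as divergent. A further 10 peaks had 2 starts on the same strand and 11 had 3 starts. No peak had 4 or more. The relaxed list of the pooled data is labelled as holding peaks and background, so its members need not be binding sites. In it, 18044 peaks did not overlap an optimal one. Of these, 324 were shared, and 250 of the 324 were divergent (77.2%, CI 72.3 to 81.4%). Shared peaks made up 31.2% of the 1246 optimal peaks with any start within 500 bp (CI 28.7 to 33.9%), against 8.26% of the 3923 such relaxed peaks (CI 7.44 to 9.16%). The 785 genes at shared peaks were 3.93% of all 19973 protein-coding genes and 48.1% of the 1633 genes at any optimal peak. Only 4 of the 785 stood at more than 1 shared peak, and 2 stood at a single-start peak as well.

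The space in which a peak can be shared was small. Positions within 500 bp of 2 or more starts made up 1147392 bases, or 1.14% of the genome, and held 33.9 optimal summits per 100 kb. Positions within 500 bp of 1 start held 4.85 per 100 kb and the remaining genome 1.35. For relaxed peaks outside the optimal list the same densities were 28.2, 20.4 and 17.3 per 100 kb. The density of optimal summits thus differed more between these spaces than that of relaxed summits, a difference that was not tested.

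The signal of shared peaks covered nearly the whole range of the list. It is the authors' value from the pooled data, on a scale the sources do not define, and serves here to rank peaks within a list. Divergent peaks had a median signal of 64.7 (interquartile range 45.5 to 106.7, lowest 31.05, highest 499). The median was 58.2 at same-strand peaks, 72.9 at facing pairs and 62.4 at peaks with 3 starts, against 59.1 at single-start peaks (interquartile range 41.6 to 96.1) and 50.3 at peaks without a start. Of the 586 strongest optimal peaks, 129 were shared, which is 33.2% of shared peaks (CI 28.7 to 38.0%), against 30.3% of single-start peaks (CI 27.4 to 33.5%) and 17.9% of the peaks without a start. The 586 weakest held 15.2% of shared, 22.3% of single-start and 30.5% of startless peaks. The intervals of shared and single-start peaks overlapped among the strongest and, among the weakest, 11.9 to 19.1% for shared peaks stood below 19.6 to 25.2% for single-start peaks. The order at the strong end depended on the limit: at 250 bp it was 31.8% of shared and 32.7% of single-start peaks, and at 1000 bp 33.9 and 26.6%. Among the 100 strongest peaks, 23 were shared, 46 had a single start and 31 had none.

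**Figure D1:**
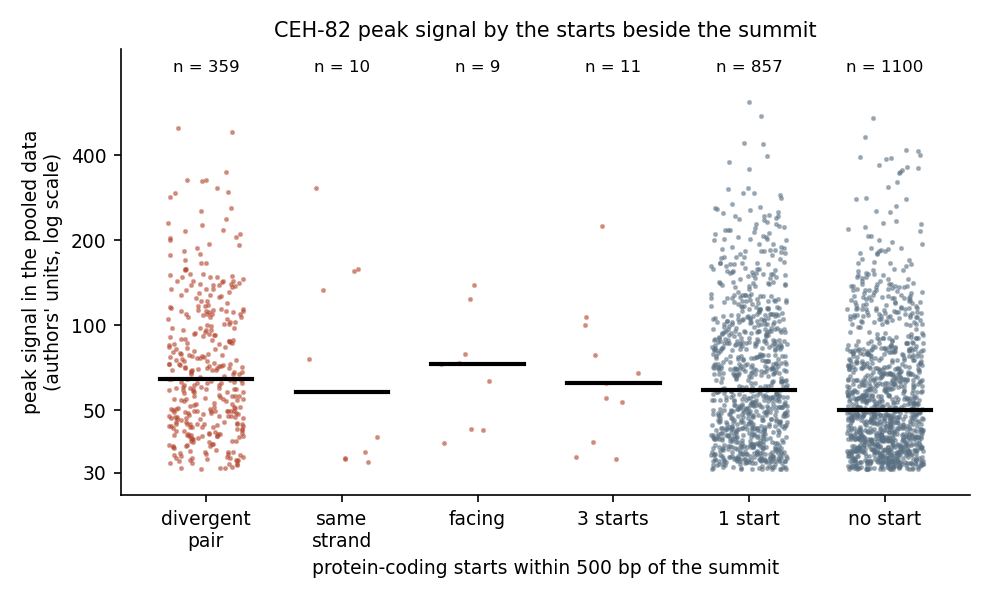
Signal of every optimal peak in the pooled data (authors' units, log scale), by the protein-coding starts within 500 bp of its summit, with a black line at each median. Points are peaks, the 4 left columns are shared peaks and the 2 right columns the rest; the columns overlap over most of their range, with medians of 64.7 at divergent pairs, 59.1 at 1 start and 50.3 at none.

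Each replicate gave similar values when taken alone, through its own 2346 strongest relaxed peaks. Replicate 1 had 380 shared peaks among them, with a median signal of 28.9 against 27.9 at single-start peaks and 23.2 at the others. Replicate 2 had 360, with medians of 39.0, 33.8 and 28.2. In both replicates the order was the one of the pooled list. The scale of each replicate's list is its own, so signals are not compared between replicates. Of the 389 shared peaks of the optimal list, 319 overlapped a top peak of both replicates (82.0%, CI 77.9 to 85.5%), against 78.5% of single-start peaks (CI 75.7 to 81.2%) and 70.1% of peaks with no start. Another 5 overlapped a top peak of neither. The ranks of the 387 shared peaks matched in both relaxed lists had a Spearman correlation of 0.761, a description across peaks of the same libraries.

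Most summits lay between the starts. The starts of the 359 divergent pairs were 12 to 947 bp apart, with a median of 379 bp (interquartile range 266.5 to 519). The nearer start was a median of 123 bp from the summit (57 to 183.5) and the farther one 263 bp (184.5 to 358), so that the distances differed by a median of 120 bp (61 to 215). Single-start peaks had their start at a median of 193 bp (121 to 308). In 327 pairs the summit lay upstream of both starts (91.1%, CI 87.7 to 93.6%), and 765 of 857 single-start summits lay upstream of theirs (89.3%, CI 87.0 to 91.2%). In the other 32 pairs the summit was a median of 22 bp past the nearer start, with the longest at 269 bp. Among summits between the starts, the distance to the nearer one was a median of 34.6% of the interval (23.4 to 42.5%). In 174 of these 327 pairs (53.2%, CI 47.8 to 58.6%) the farther start was at most 2 times as far as the nearer one. The nearer start was on either strand, being the plus-strand gene in 195 of 359 pairs (54.3%, CI 49.2 to 59.4%, an interval that includes an even split). The interval of the peak covered both starts in 32 pairs and at least 1 in 197. These counts follow from the geometry above, since 324 of the 359 peaks had the same width of 280 bp and 327 had their summit exactly in the middle.

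**Figure D2:**
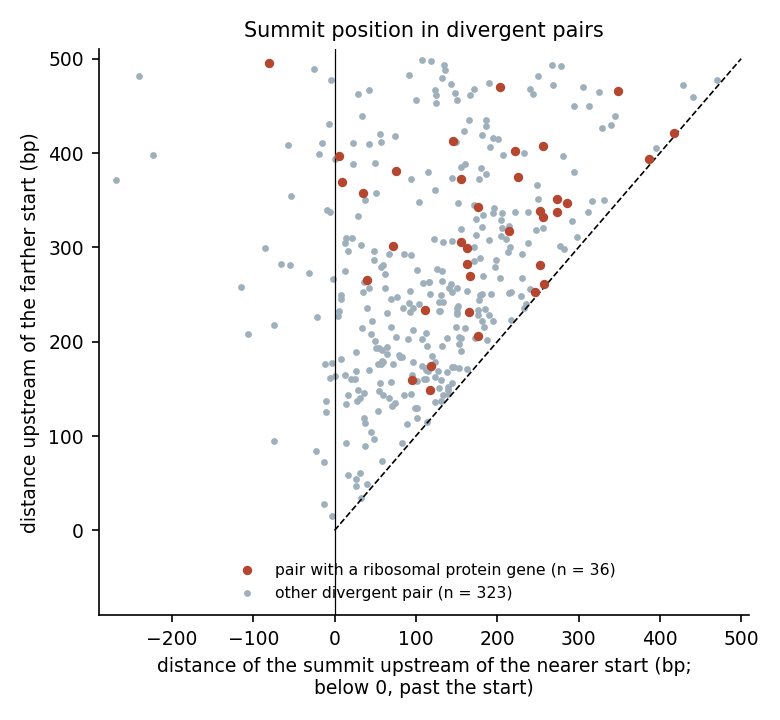
Distance in bp of the summit upstream of the nearer start (x axis; below 0, past that start) and of the farther start (y axis) for the 359 divergent peaks; the dashed line marks equal distances. Red points are the 36 peaks with a cytosolic ribosomal protein gene, and they lie toward larger farther distances than most of the 323 grey points.

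Summits were repeatable enough to name the nearer start in most pairs. In the 357 divergent peaks matched in both relaxed lists, the replicate summits were a median of 14 bp apart (interquartile range 5 to 26, longest 200). Both replicates gave the same nearer start in 326 of 357 pairs (91.3%, CI 87.9 to 93.8%). This was so in 212 of 216 pairs whose distances differed by 100 bp or more, in 65 of 71 that differed by 50 to 99 bp and in 49 of 70 that differed by less. At cap-2, which encodes an actin capping protein, and gmps-1, a GMP synthase gene, replicate 1 put gmps-1 nearer and replicate 2 put cap-2 nearer. The signal showed little relation to the geometry: across the 359 peaks its Spearman correlation was 0.051 with the distance between starts, 0.055 with the distance to the nearer start and -0.059 with the difference of the 2 distances.

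The extremes of the geometry show its range. The closest starts were those of F32D8.14 and F32D8.5, 12 bp apart (signal 59.95), F25H9.7 and F25H9.6, 15 bp apart (signal 100.1), and nbet-1 and Y59E9AL.36, 20 bp apart (signal 47.5). In all 3 the summit lay past the nearer start, by 3, 13 and 75 bp. The widest were mtg-1 and snf-6, a neurotransmitter transporter family gene, at 947 bp (signal 35.7), K09G1.1 and rtfo-1 at 901 bp (signal 45.6), and vha-1, a vacuolar ATPase subunit gene, and sqv-3 at 900 bp (signal 85.7). Their summits lay near the middle, with distances that differed by 7, 43 and 18 bp, as the 500 bp limit on both sides requires. The most even distances were those of Y52B11A.10 and dxbp-1 and of slc-25A32 and gei-14, which differed by 1 bp. Those of col-38 and rpl-5, rpl-9 and lpd-7, and tiar-2 and vps-2 each differed by 3 bp. Just inside the limit were pri-2/W02D9.2 (farther start at 499 bp), C06A5.3/simr-1 (498 bp) and sec-61.A/rps-18 (495 bp). Just outside it were T07A9.12/kgb-1 and pak-2/C45B11.9 (both 502 bp) and rps-1/ifet-1 (505 bp), the last with a signal of 398.5.

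Most close divergent pairs in the genome had no peak, and the share with one depended on how far apart the starts were. There were 1746 neighbouring divergent pairs with starts at most 1000 bp apart, and 369 of them had a shared peak, which is 21.1% (CI 19.3 to 23.1%), with 20.45% in the top list of replicate 1 and 19.7% in that of replicate 2. A further 94 had a peak at 1 start alone, 2 had separate peaks, and 1281 had none. The share with a shared peak was 16.9% at 1 to 200 bp (42 of 248), 31.9% at 201 to 300 bp (83 of 260) and 37.7% at 301 to 400 bp (81 of 215). It was 31.8% at 401 to 500 bp, 23.8% at 501 to 600 bp, 13.4% at 601 to 800 bp and 1.85% at 801 to 1000 bp (5 of 271). The positions within 500 bp of both starts shrink with every increase in distance, which by itself lowers the share in wider bins. Beyond 500 bp, part of the stretch between the starts is out of reach as well. With any peak at either start counted, the shares in the same order were 17.3, 31.9, 38.1, 32.3, 26.2, 26.2 and 17.7%. Pairs at 1 to 200 bp therefore stood below those at 201 to 500 bp on both counts. Of the 3491 genes in close divergent pairs, 835 had a peak at their start (23.9%, CI 22.5 to 25.4%), against 798 of 16482 other genes (4.84%, CI 4.52 to 5.18%). Of the 3491, 738 stood at a shared peak, where 1 peak counts for both genes. The first interval thus treats paired genes as independent, and a gene can be counted through a peak beside its partner.

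**Figure D3:**
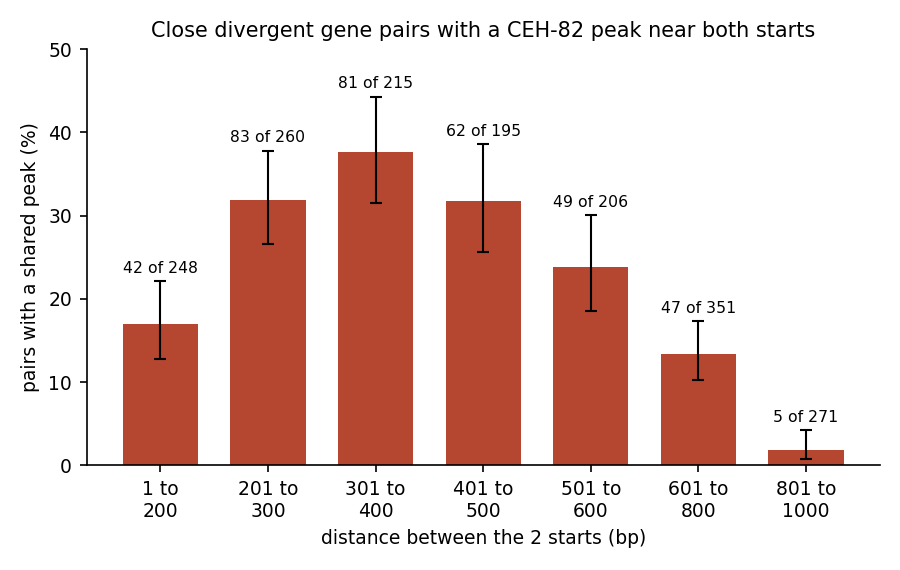
Percentage of close divergent gene pairs with a peak within 500 bp of both starts, by the distance between the starts in bp (bins of unequal width). Bars are shares with 95% Wilson intervals, and the counts stand above them; the share is highest, 37.7%, at 301 to 400 bp.

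Several of the strongest divergent peaks stood beside ribosomal protein genes. Ribosomal proteins form the large (rpl) and small (rps) ribosomal subunits. Of the 15 strongest divergent peaks, 6 had a cytosolic ribosomal protein gene and 11 had a gene of the 15 lists of basic cell functions. Over all 359 divergent peaks, 36 had a cytosolic ribosomal protein gene and 136 had a gene of these lists. The strongest stood between rpl-20 and Y17G9B.5, annotated as the homologue of ECSIT, with signals of 205.5 in replicate 1 and 294.7 in replicate 2. It was followed by rpl-15 and K11H12.8, with 221.3 and 266.1. Then came ska-3, a kinetochore protein gene, and rps-12, with 157 in replicate 1 and 198.5 in replicate 2. Next were hsr-9 and rps-19, with 153 and 172. The pair of rpl-12 and lin-54, the DNA-binding subunit of the DREAM complex, had 124.3 and 171.4, and ekl-4 and rps-20 had 106.1 and 148.2. These 6 were taken from the strongest by pooled signal, so their high values in each replicate follow from the choice.

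The other 9 of the 15 strongest divergent peaks had no cytosolic ribosomal protein gene. The peak of drr-2, a translation factor-like gene, and set-16, a histone H3K4 methyltransferase gene, had a pooled signal of 328.1. The chaperonin subunit genes cct-8 and cct-1 shared peaks with the thioredoxin-domain gene Y55F3AR.2 (324.5) and with mig-5, a Dishevelled homologue (306.3). The peak of cap-2 and gmps-1 reached 294.4 and that of scpr-1 and gpap-1 284.2. The peak of mrps-7, a mitochondrial ribosomal protein gene, and Y57G11C.3 reached 259.8. The proteasome gene rpn-3 and the heat shock gene hsp-110 shared a peak of 238.5, and dnsn-1 and C24H12.4 one of 229.6. The peak of wapl-1, a cohesin release factor gene, and htz-1, which encodes histone H2A.Z, had 227.1. All 15 strongest divergent peaks had their summit upstream of both starts.

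Of the 359 divergent peaks, 136 had at least 1 gene in the 15 cell function lists (37.9%, CI 33.02 to 43%), against 289 of all 1746 close divergent pairs (16.6%, CI 14.9 to 18.4%). Cytosolic ribosomal protein genes were often at a peak of any kind, 64 of 81, against 1633 of all 19973 protein-coding genes. In a close divergent pair stood 48 of the 81, so their peaks were not limited to such pairs. Of these 48, 40 were at a shared peak (83.3%, CI 70.4 to 91.3%). Among all 3491 genes of such pairs 21.1% were. Histone modifiers had 8 of 13 and splicing factors 17 of 31, secretory pathway genes 11 of 21 and chaperones 15 of 30. The respiratory chain had 16 of 35 and proteasome subunits 9 of 20, translation factors 10 of 25 and cell cycle genes 11 of 29. Mitochondrial ribosomal proteins had 9 of 25, nuclear pore genes 4 of 12, vacuolar ATPase genes 2 of 6, general transcription genes 3 of 10 and mediator genes 1 of 4. Aminoacyl-tRNA synthetases were the cell function list with the lowest share, at 1 of 11, which was ears-2, shared with uncp-18 (signal 148.8). In each of the other 14 lists the share was above that of all genes in close pairs. For mitochondrial ribosomal proteins and the nuclear pore, vacuolar ATPase, general transcription and mediator lists the interval included that value.

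Chemoreceptors, C-type lectins and F-box genes were at shared peaks less often than the 21.1% of all genes in close pairs by their intervals, with no test made. The intervals of nuclear hormone receptors, collagens, neuropeptides and homeobox genes included that value. Of chemoreceptor genes in close divergent pairs, 3 of 108 were at a shared peak (2.78%, CI 0.949 to 7.85%). They included sri-5, paired with rsr-1, a splicing-related gene (signal 217.7), and srr-10, paired with clic-1, the clathrin light chain gene (67.3). No other gene with a chemoreceptor symbol stood at an optimal peak, while C07H6.9, a serpentine receptor by its RefSeq product and outside the symbol-based list, shared a peak with the splicing gene sap-140 (106.6). F-box genes had 4 of 81 (4.94%, CI 1.94 to 12.02%): fbxb-85 with hex-3, fbxb-88 with tbck-1, fbxc-23 with csc-1, a chromosomal passenger gene, and fbxc-44 with C16A11.2. Nuclear hormone receptors had 1 of 18, nhr-47 with the chaperone gene dnj-19 (149.7), and collagens 2 of 19, col-71 with Y49F6B.2 (93.9) and col-38 with rpl-5 (84.0). Neuropeptides had 1 of 9, nlp-4 with the exosome gene exos-3 (39.1), homeobox genes 1 of 5 (20%), ceh-38 with malt-1 (113.3), and C-type lectins 0 of 53 (CI 0 to 6.76%). At nhr-47 and ceh-38 the summit lay past the start of the family member, by 15 and 55 bp, and upstream of the partner, by 411 and 281 bp.

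Both genes of a divergent pair belonged to a list in 21 of 359 peaks (5.85%, CI 3.86 to 8.78%), and to the same list in 7. The share over all close divergent pairs is not given here, so these counts do not show a pairing of functions. The same-list pairs were rps-14 and rpl-36 (signals of 68.2 in replicate 1 and 55.6 in replicate 2), rpl-24.1 and rps-10 (48.5 and 61.5), and rps-30 and rpl-39 (50.1 and 57.7), which each join a gene of the small and a gene of the large ribosomal subunit. They were also trap-3 and sec-61.B of the endoplasmic reticulum translocon (80.5 and 93.8), rsp-1 and rsp-2 of the SR splicing factors (64.4 and 89.0), rsp-5 and the snRNP gene snr-3 (19.5 and 25.6), and orc-5 and cyb-1, genes of the replication origin complex and cyclin B (46.9 and 39.4). Pairs across lists included rfc-4 of the replication clamp loader with the elongation factor gene eef-1A.1 (203.3 in the pooled data). They also included the Jumonji domain gene jmjd-4 with mev-1 of respiratory complex II (142.9), and mrpl-49 with rpl-28 (158.6). Others were rpl-7A with set-21, nuo-1 with rpl-36.A, rps-9 with lsm-1, sec-61.A with rps-18, prp-9 with mrps-18B, pbs-2 with eif-6 and rpb-3 with pas-4.

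At ribosomal protein pairs the summit lay closer to the partner. The 36 divergent peaks with a ribosomal protein gene had a median signal of 103.3 in the pooled data, 49.3 in replicate 1 and 54.8 in replicate 2, against 62.6, 27.7 and 35.7 at the other 323. The 24 single-start peaks with a ribosomal protein gene had about the same pooled median, 103.2. Of the 39 ribosomal starts at divergent peaks, 29 were the farther start (74.4%, CI 58.9 to 85.4%), 27 by the summits of replicate 1 and 26 by those of replicate 2. An even split is fixed over all starts, since each pair has 1 farther start. The ribosomal start was a median of 301 bp from the summit and the partner 203 bp. Ribosomal starts at single-start peaks were at 302.5 bp (24 peaks), so the long distance was not limited to shared peaks. The starts of pairs with a ribosomal gene were also farther apart, by a median of 509 bp against 365 bp in the other pairs. In the 33 pairs with a single ribosomal protein gene, that gene was the farther one in 26 (78.8%, CI 62.3 to 89.3%), and in 17 of 20 whose distances differed by at least 100 bp. Among the exceptions were rpl-12, 35 bp from the summit while lin-54 was at 358 bp, and rpl-15, at 348 bp with K11H12.8 at 466 bp. Measured to the first coding base, the ribosomal gene was the farther in 28 of 39. Chaperone genes were the farther start in 13 of 16 and proteasome genes in 2 of 9, with the same counts in each replicate. These lists were singled out after the values of all lists were seen.

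**Figure D4:**
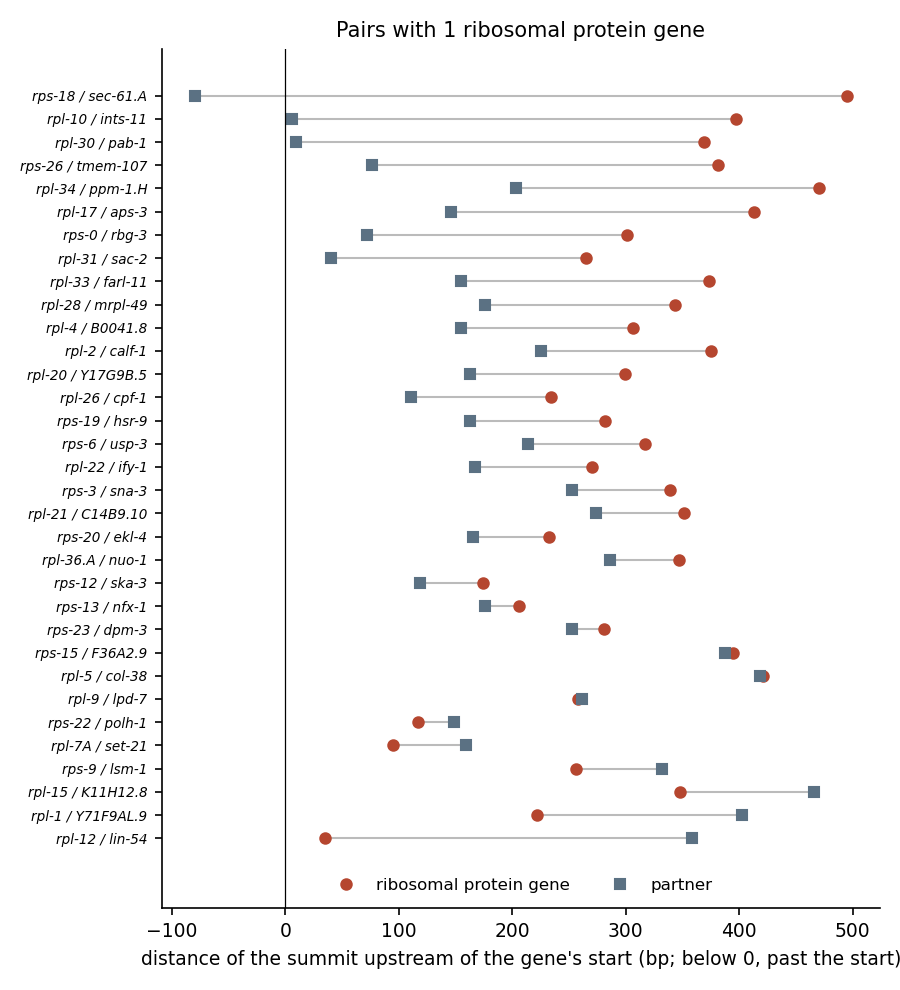
Distance in bp of the summit upstream of the start of the ribosomal protein gene (red circles) and of its divergent partner (grey squares) in the 33 divergent peaks with a single ribosomal protein gene; below 0 the summit lies past the start. Rows are ordered by the difference, and in 26 of them the red circle lies at the larger distance.

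The triplet CAG directly before the annotated start, the usual last letters of a splice acceptor, was frequent at the farther start. It was counted after stretches between starts had been read. It preceded 191 of 359 farther starts (53.2%, CI 48.0 to 58.3%), 105 of 359 nearer starts (29.2%, CI 24.8 to 34.2%) and 343 of 857 starts at single-start peaks (40.0%, CI 36.8 to 43.3%). In close divergent pairs without a shared peak it preceded 513 of 2754 starts (18.6%, CI 17.2 to 20.1%), and over all 19973 protein-coding starts 22.1%. In 192 divergent peaks 1 of the 2 starts had it, and that start was the farther in 139 (72.4%, CI 65.7 to 78.2%). The count was 133 of 191 by the summits of replicate 1, 135 of 192 by those of replicate 2, and 120 of 173 without the pairs that hold a ribosomal protein gene. The median distance from the summit was 228.5 bp for starts with the triplet and 149 bp for starts without it at divergent peaks, and 245 and 158 bp at single-start peaks.

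Ribosomal protein starts had the highest share of the lists with a start at a divergent peak, 32 of 39 (82.1%, CI 67.3 to 91.0%), against 9 of the 33 partners that were not ribosomal (27.3%, CI 15.1 to 44.2%). In the 18 pairs where the triplet stood at the ribosomal start alone, the ribosomal gene was the farther in 18. In the 15 pairs where both or neither start had it, the ribosomal gene was the farther in 8. There was no pair in which the partner alone had it. The share with the triplet was 9 of 16 at chaperone starts and 5 of 9 at proteasome starts. Whether the triplet marks trans-splicing at each of these genes was not tested.

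**Figure D5:**
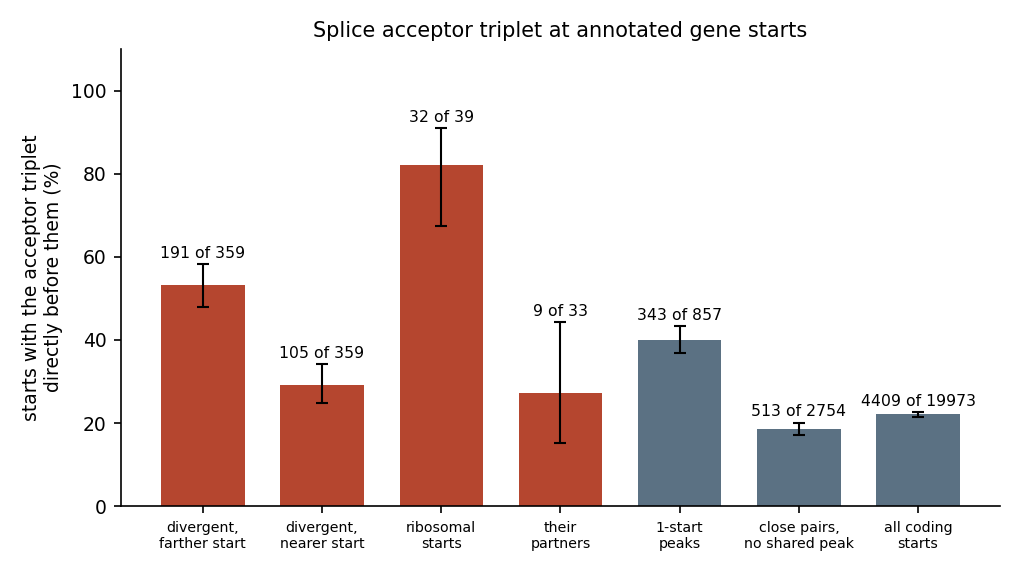
Percentage of annotated starts directly preceded by the splice acceptor triplet, with 95% Wilson intervals and counts above the bars; red bars are starts at divergent shared peaks and grey bars the others. It preceded 53.2% of farther and 29.2% of nearer starts, and 82.1% of ribosomal protein starts and 27.3% of their partners.

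Sequence words in the 100 bp on either side of the summit had unequal shares at shared and other peaks. Each word was searched on both strands, and the differences were not tested. The sets also differed in chromosome make-up: X held 13 of the 389 shared peaks and 145 of all 1246 peaks with a start within 500 bp. Words are not given by chromosome here. GAGAGA was in 84 of 389 shared windows (21.6%, CI 17.8 to 25.95%), against 38.9% of 857 single-start windows (CI 35.7 to 42.2%), 58.9% of windows without a start and 15.7% of windows centred 150 bp upstream of all protein-coding starts. CTGCGTC was in 9.0% (CI 6.54 to 12.3%), against 18.3, 26.4 and 3.35%. CGCGAA was in 17.7% (CI 14.3 to 21.8%), against 15.99, 8.36 and 4.96%. The GATA-type word TGATAA was in 6.17%, against 6.65, 6 and 22.03%, the TATA-box word TATAAA in 14.4%, against 12.1, 7.73 and 25.7%, and the E-box CACGTG in 3.09%, against 5.13, 5.82 and 3.98%. The homeodomain-type word TAATTA was in 6.94% (CI 4.81 to 9.91%), against 5.72, 2.55 and 11.7%. Windows at the middle of close divergent pairs allow a comparison that does not rest on a summit, between the 369 pairs with a shared peak and the 1377 without. GAGAGA was in 16.8% with a shared peak (CI 13.3 to 20.95%) and 12.9% without (CI 11.2 to 14.7%). CTGCGTC was in 7.86 and 2.40%, CGCGAA in 13.8 and 6.10%, TGATAA in 14.4 and 21.2%, and TATAAA in 21.95 and 29.2%. TAATTA was in 11.65 and 13.65%, and CACGTG in 2.17 and 4.43%. The median GC content of these windows was 35.3 and 32.8%. With 50 bp on either side of the middle, GAGAGA was in 7.32% with and 7.63% without a shared peak. CTGCGTC was then in 3.79 and 1.38%, and CGCGAA in 6.78 and 3.41%. In the replicates' own top lists GAGAGA was in 21.6 and 21.7% of shared windows, against 36.5 and 39.1% of single-start windows. Base composition also differed between the sets: the median GC content was 39.3% in shared windows, against 42.8% at single-start peaks, 47.3% at peaks without a start and 33.8% upstream of all starts. In the 50 bp on either side it was 47.5% at shared, 48.5% at single-start and 49.5% at startless peaks, where GAGAGA was in 13.6, 26.3 and 39.5% of windows.

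The words TAAATCGA, AAATCGAC, which overlaps it, and TACGGTA were counted because they recurred in stretches read at strong peaks. TAAATCGA was in 31 of 389 shared windows (7.97%, CI 5.67 to 11.1%), against 3.73% of single-start windows (CI 2.66 to 5.22%), 1.45% of windows without a start and 1.75% of windows upstream of all starts. AAATCGAC was in 5.91%, against 3.15, 1.18 and 1.42%. TACGGTA was in 40 shared windows (10.3%, CI 7.64 to 13.7%), against 3.73, 1.55 and 3.20%. At the middle of close divergent pairs, TAAATCGA was in 6.504% with and 2.03% without a shared peak, and TACGGTA in 7.59% with and 4.43% without. Without the 10 peaks whose stretches had been read, TAAATCGA was in 27 and TACGGTA in 38 of 379. In the replicates' own top lists TACGGTA was in 10 and 9.72% of shared windows, against 3.99 and 4.21% of single-start windows. A match is a description of letters and not evidence of a binding site.

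The 10 same-strand peaks mostly had nearly coincident starts or a very short gene record. In 8 of them the 2 starts were at most 50 bp apart, and in 2 they were identical. In 6 of them 1 of the 2 gene records was shorter than 100 bp. The strongest stood at egl-30, the Gq alpha subunit gene, and C53H9.4, a record of 93 bp (signals of 125.3 in replicate 1 and 175.4 in replicate 2). The others with a short record were tub-2 with Y71G12A.5 (a record of 30 bp), pqn-51 with K11D12.14 (51 bp), ril-2 with C14C10.10 (42 bp), miga-1 with K01D12.20 (48 bp) and fce-2 with F48F5.8 (48 bp). Identical starts belonged to unc-60 and F53E2.2, both annotated as actin-depolymerizing factor genes in RefSeq (signal 76.2), and to mrpl-44 and mccc-2 (40.3). The starts of Y39A1A.22 and Y39A1A.21 were 6 bp apart (155.3) and those of clec-140 and hmg-11 25 bp apart (33.9). In all 10 the summit lay upstream of both starts. At such starts a peak beside 1 promoter and a peak beside several cannot be told apart.

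The 9 facing peaks covered 8 pairs, whose starts overlapped by 3 to 198 bp (median 74), and in all 9 the summit lay upstream of the nearer start and inside the gene of the other. Y17G7B.20 and ash-2, a gene of the H3K4 methyltransferase complex, had 2 of these peaks, with signals of 139.4 and 63.4. The summit of the stronger lay 479 bp upstream of Y17G7B.20 and that of the weaker 58 bp upstream. Y54E10BR.2 and rpb-7, an RNA polymerase II subunit gene, had a signal of 123.8. Of the 11 peaks with 3 starts, 10 had starts on both strands, and in 6 a same-strand pair of starts was at most 50 bp apart. The strongest were at rbc-2, Y54F10AM.15 and ndua-8, a complex I subunit gene (225.4), elof-1, lin-7 and Y54G11A.17 (107), and Y62E10A.23, mdt-9 and Y62E10A.20 (99.9). They were followed by atp-2, the ATP synthase beta subunit gene, with C34E10.10 and C34E10.12 (78.2), dli-1, tin-9.2 and exos-4.1 (67.8), and mib-1, gly-9 and smc-3, a cohesin gene (62.4).

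Shared peaks were spread over the autosomes and sparse on X. Chromosome I held 91, II 63, III 85, IV 69, V 68 and X 13. On X they were 8.97% of the 145 peaks with a start within 500 bp (CI 5.31 to 14.7%), against 30.3 to 36.4% on the single autosomes. X also had few close divergent pairs, 80 against 290 to 423 on the autosomes, and 13 of the 80 had a shared peak (16.2%, CI 9.75 to 25.8%). That share lay between the 13.9% of V (CI 11.0 to 17.6%) and the 18.8% of II, below 22.4% on IV, 26.9% on I and 27.9% on III. Per 100 kb of positions within reach of 2 or more starts there were 18.1 shared peaks on X, against 27.7 to 44.3 on the autosomes.

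Few shared peaks had a start of a tRNA or another small RNA gene nearby. A tRNA start lay within 500 bp of 1 of the 389 (0.257%, CI 0.0454 to 1.44%), against 22 of 857 single-start peaks (2.57%, CI 1.70 to 3.86%). A snoRNA start lay within 500 bp of 6 (1.54%, CI 0.709 to 3.32%), against 20 (2.33%, CI 1.52 to 3.58%). A miRNA start lay beside 3 (0.771%), against 3 (0.350%), and an snRNA start beside 1 (0.257%), against 2 (0.233%). Of these classes the intervals were apart for tRNA alone. Starts annotated as ncRNA were beside 50 (12.9%), against 107 (12.5%).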

How the data were processed

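The data were peak lists on the ce11 build. Per the deposited file descriptions, the authors called a relaxed list of 30000 peaks in each replicate and a relaxed list of 20459 in the pooled data, and derived the optimal list from these with the irreproducible discovery rate. Each peak has a signal, as deposited by the authors. Its scale, the aligner, the caller and the threshold are not given in the sources used here. No read totals were used, so depth is unknown. The ce10 lists were not used.

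Summits were matched to protein-coding gene starts of Ensembl release 115 (WBcel235, 6 chromosomes) within 500 bp. Peaks matched across lists when they overlapped by at least 1 bp. For a replicate taken alone, its 2346 strongest relaxed peaks were classified in the same way. Gene lists were patterns of gene symbols, and names and roles come from Ensembl, RefSeq or textbook knowledge. The pairs named were the strongest, the extremes of the geometry, those beside the limit and those with genes of a list, together with a few chosen after their values were seen. Alternatives were other distances, transcript starts, merged starts, peak middles, a stricter list, other overlaps and windows, and each replicate alone. Members and lists were chosen with earlier results of these data known. The code (Python 3.11.15, NumPy 2.4.6, SciPy 1.17.1) was tested on simulated data. No item was tested for significance, because the 2 samples form 1 group. A few items are not reported here.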

Additional observations from a re-analysis of the deposited data

How the results depend on the processing

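With a limit of 250 bp there were 179 shared peaks, 20.34% of peaks with a start. The medians to the nearer and farther start were 93.5 and 176 bp, and 18.3% of the 918 divergent pairs with starts at most 500 bp apart had a shared peak. With 1000 bp there were 587, or 39.08%, of which 81.09% were divergent. The medians were then 145.5 and 341 bp, and 33.9% of shared and 26.56% of single-start peaks were among the 586 strongest. At 250 bp these shares were 31.84 and 32.67%, so the order turned. In the stronger 50% of the list there were 233 shared peaks. Of single-start peaks 26.44% were then among the strongest of that shortened list, the median to the nearer start was 134 bp, and 12.77% of close pairs had a shared peak. With same-strand starts within 50 bp counted as 1, 95.54% were divergent. In windows of 50 bp on either side of the summit, smaller by construction, TAATTA was in 1.542%, GAGAGA in 13.62%, TATAAA in 5.913%, CGCGAA in 8.997% and TGATAA in 1.285% of shared peaks.

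With 1 replicate left out, the number of shared peaks was 360 and 380, the divergent share 93.06 and 91.84%, and ribosomal starts were the farther in 65.71 and 66.67%, in each case without replicate 1 and without replicate 2. With every transcript start counted there were 402 shared peaks, and all 10 values tried moved by less than the spread used to judge them. Measuring from the middle of the peak changed little by construction, because the summit was the middle of most peaks. At 50% overlap, 316 and not 319 shared peaks overlapped both replicates' top lists. No paired analysis was possible because the 2 replicates belong to 1 group.

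Depth is unknown and no untagged control was analysed here, and no counting precision or background is given for a signal. The annotated start limits every distance. Peaks of 1 list are not replicates, and the Wilson intervals treat them as independent although all come from the same libraries. Intervals over genes also count a shared peak for each of its genes.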
